A study of Rattus norvegicus with 21 samples.

Results

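Keratins are the intermediate filament proteins of epithelial cells, and this account follows 7 of them in rat bladder carcinoma cells along a time course of fibroblast growth factor 1 (FGF1). Every probe set whose only annotated gene symbol was Krt5, Krt14, Krt15, Krt8, Krt18, Krt19 or Krt13 was taken, which gave 1 probe set for each of the 7 genes, among 10411 gene symbols and 15866 probe sets tested. RNA levels were measured on 21 Affymetrix arrays, 1 sample each, in 12 groups of line and time: NBTII-FGFR1 and NBTII cells at 0, 0.5, 2, 6, 24 and 48 h. NBTII is an epithelial line from a rat bladder carcinoma, and NBTII-FGFR1 is that line carrying a transfected FGF receptor 1. The stimulated cells of both lines received FGF1 at 20 ng/ml together with heparin at 50 µl/ml, the 0 h arrays are from the control cells, and the series places the experiment in the epithelial to mesenchymal transition. The groups with 1 array were NBTII at 0 h and each line at 0.5 h, and the other 9 had 2 arrays. No array after 0 h lacks FGF1 and heparin, so the ligand cannot be told apart from time in culture. The sources used here do not state the promoter of the transfected receptor, nor whether the line is 1 clone or a pool, and they do not say whether the 2 arrays of a group came from separate cultures, so the p-values measure the spread between these arrays, which may be technical.

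A keratin filament is built from pairs of 1 type I and 1 type II protein. Krt5 (type II) and Krt14 (type I) form the filaments of basal cells in stratified epithelium and urothelium, and Krt15 is a further type I keratin of basal cells. Krt8 (type II) and Krt18 (type I) form the filaments of simple epithelium and are carried by the upper layers of urothelium, where Krt19 (type I) is found too. Krt13 (type I) is a keratin of non-cornified stratified epithelium and of the lower layers of urothelium. Keratin filaments end on desmosomes and hemidesmosomes, and cells that pass to a mesenchymal state commonly lose keratins and gain vimentin filaments.

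The genes of Krt8 and Krt18, which encode the type II and type I partners of simple epithelium, are neighbours in the RefSeq annotation of assembly GRCr8, and Krt13, Krt15 and Krt19 follow each other among its protein-coding genes. The RefSeq promoter table of GRCr8, with 250 bases before and 50 after each annotated start, held 3 of the 7 genes. They are shown because Krt8 and Krt18 share a course over time in the values below, and Krt5 has another. Capitals mark the letters of 4 motifs that were searched on both strands and are spelled out after the sequences.
Krt5, chr7:134730520-134730819, minus strand: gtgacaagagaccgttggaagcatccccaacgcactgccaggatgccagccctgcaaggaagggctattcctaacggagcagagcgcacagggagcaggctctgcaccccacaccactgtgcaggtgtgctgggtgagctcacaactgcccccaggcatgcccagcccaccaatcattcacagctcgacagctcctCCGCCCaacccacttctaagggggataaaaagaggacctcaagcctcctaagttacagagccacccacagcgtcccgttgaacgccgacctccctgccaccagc
Krt8, chr7:135010290-135010589, minus strand: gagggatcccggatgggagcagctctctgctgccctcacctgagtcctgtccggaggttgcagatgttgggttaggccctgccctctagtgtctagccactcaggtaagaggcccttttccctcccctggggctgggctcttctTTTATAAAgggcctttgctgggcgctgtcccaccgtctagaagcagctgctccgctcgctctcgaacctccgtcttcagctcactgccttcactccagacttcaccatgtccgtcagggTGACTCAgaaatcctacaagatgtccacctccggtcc
Krt18, chr7:135035918-135036217, plus strand: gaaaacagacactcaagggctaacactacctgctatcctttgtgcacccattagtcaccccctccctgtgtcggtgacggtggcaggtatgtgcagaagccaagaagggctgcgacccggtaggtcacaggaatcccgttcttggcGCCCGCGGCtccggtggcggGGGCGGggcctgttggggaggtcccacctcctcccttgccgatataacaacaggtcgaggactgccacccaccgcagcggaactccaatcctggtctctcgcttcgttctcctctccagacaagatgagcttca

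The GC box, searched as GGGCGG, was found in Krt5, on the reverse strand, and in Krt18, against 33.1% of the 33469 promoters of the table. The AP-1 site, searched as TGANTCA, was found in Krt8, downstream of the annotated start, against 7.33% of promoters. The printed letters at that start begin with atg, so this match may lie in coding sequence. The TATA box, searched as TATAAA, was found in Krt8 on both strands at overlapping positions, against 14.2%, and the AP-2 site, searched as GCCNNNGGC, in Krt18, against 15.1%. No motif was shared by Krt8 and Krt18, and a match describes the letters in the window only.

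All values below are log2 signals as deposited, so a difference of 1 is a doubling of signal. The arrays were alike in scale, with lower quartiles of 4.36 to 4.54, medians of 6.13 to 6.22 and a highest probe set of 13.89 to 14.29. Signals of different probe sets are not compared as levels of RNA. Fgfr1 was between 4.56 and 7.58 on the NBTII-FGFR1 arrays from 0.5 h on and between 3.58 and 4.05 on the NBTII arrays. At 0 h it was 5.92 on NBTII-FGFR1 replicate 2, but 3.57, against its label, on the library labelled NBTII-FGFR1 0 h replicate 1. Keratin differences from 0 h that are printed singly for that line are therefore also given without that library. Counts and medians of the gene lists are given with it only. The 24 poly-A spike probe sets averaged 5.58 to 6.02 on the 18 arrays after 0 h and 6.49 to 7.07 on the 3 arrays at 0 h, so that handling and time cannot be told apart in any difference from 0 h. Late (24 and 48 h) against early (2 and 6 h) differences use no 0 h array. Differences were tested with limma over all groups, and a probe set was called where its Benjamini-Hochberg adjusted p over all 15866 probe sets was below 0.05. Where arrays of a gene are said not to overlap, this is a description, and its share over all probe sets was not counted.

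The basal keratins fell late in both lines. Late against early, Krt5, Krt14 and Krt15 fell in NBTII-FGFR1 and in NBTII cells, with log2 differences of -3.51 to -1.24, and no late array of these genes overlapped an early array of its line. Of all probe sets, 7.48% in NBTII-FGFR1 and 5.82% in NBTII were called lower in this comparison. All 3 were also called lower in the late arrays against 0 h, as were 8.03% of all probe sets in NBTII-FGFR1 and 0.473% in NBTII. In bulk RNA, fewer cells that express a keratin and less of its RNA per cell cannot be told apart.

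In NBTII-FGFR1 cells Krt5 (probe set 1370863_at), the type II keratin of basal cells, had signals of 12.49 and 12.71 at 0 h, 12.93 at 0.5 h, 12.93 and 12.86 at 2 h, 12.69 and 12.50 at 6 h, 11.37 and 10.42 at 24 h, and 8.97 and 9.21 at 48 h. In NBTII cells Krt5 had 12.53 at 0 h, 12.56 at 0.5 h, 12.64 and 12.91 at 2 h, 12.35 and 12.61 at 6 h, 11.34 and 10.80 at 24 h, and 11.25 and 10.82 at 48 h. The signal was level through 6 h in both lines, and the lowest of the 21 values were the 2 NBTII-FGFR1 arrays at 48 h. Late against early, Krt5 fell by 2.76 ± 0.18 (SE, adjusted p = 3.5e-07) in NBTII-FGFR1, a 6.75-fold difference in signal, and fell by 1.58 ± 0.18 (adjusted p = 6.5e-05) in NBTII, with 4 arrays on each side.

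In NBTII-FGFR1 cells Krt14 (probe set 1371895_at), its type I partner, had 13.70 and 13.92 at 0 h, 13.81 at 0.5 h, 13.85 and 13.93 at 2 h, 13.70 and 13.75 at 6 h, 13.21 and 12.87 at 24 h, and 11.76 and 11.90 at 48 h. In NBTII cells Krt14 had 13.64 at 0 h, 13.71 at 0.5 h, 13.65 and 13.80 at 2 h, 13.77 and 13.80 at 6 h, 12.77 and 12.61 at 24 h, and 12.40 and 12.29 at 48 h. The early signals lay close to the highest probe set of the arrays, where the scale may be compressed. The spread within groups was the smallest among the keratins with signals above the lower quartile, at a residual SD of 0.13. Late against early, Krt14 fell by 1.37 ± 0.09 (adjusted p = 4.0e-07) in NBTII-FGFR1 and fell by 1.24 ± 0.09 (adjusted p = 1.8e-06) in NBTII.

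In NBTII-FGFR1 cells Krt15 (probe set 1372153_at), the other type I keratin of basal cells, had 7.15 and 6.93 at 0 h, 8.57 at 0.5 h, 8.40 and 9.37 at 2 h, 7.93 and 8.56 at 6 h, 5.22 and 4.59 at 24 h, and 5.48 and 4.92 at 48 h. In NBTII cells Krt15 had 9.16 at 0 h, 8.15 at 0.5 h, 7.97 and 9.14 at 2 h, 7.27 and 7.95 at 6 h, 6.00 and 4.56 at 24 h, and 6.90 and 5.83 at 48 h. Of the 7 keratins it spanned the widest range, 4.81, and 1 array of each line at 24 h, at 4.59 in NBTII-FGFR1 and 4.56 in NBTII, came close to the lower quartile. Late against early, Krt15 fell by 3.51 ± 0.35 (adjusted p = 1.7e-05), 11.4-fold, in NBTII-FGFR1 and fell by 2.26 ± 0.35 (adjusted p = 6.9e-04), 4.79-fold, in NBTII.

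**Figure D1:**
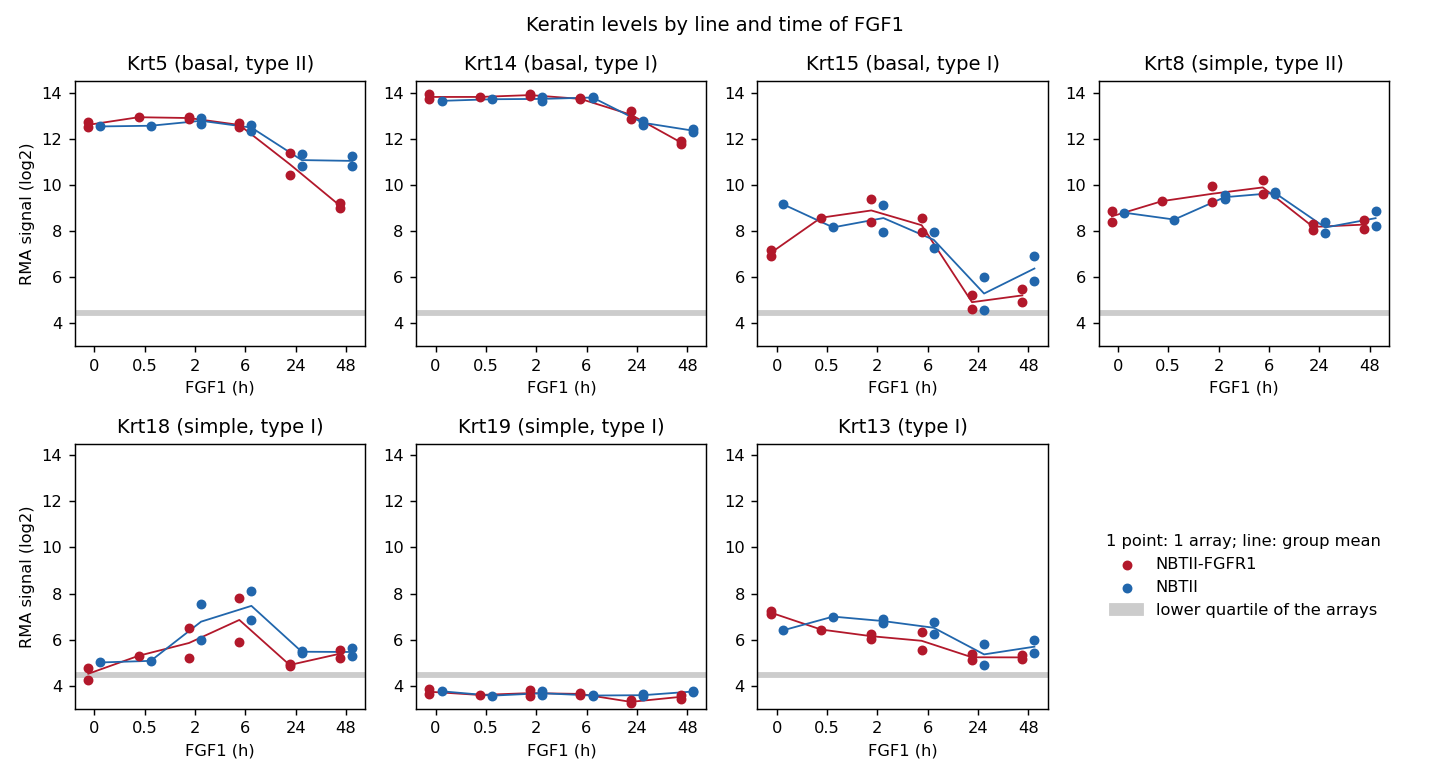
Log2 signal of the 7 keratin probe sets (y axis) by hours of FGF1 (x axis, evenly spaced steps), with NBTII-FGFR1 in red and NBTII in blue, 1 point per array and lines through group means; the grey band is the range of the arrays' lower quartiles. Krt5 and Krt14 stay level to 6 h and are lowest at 48 h in NBTII-FGFR1, Krt8 and Krt18 peak at 2 to 6 h, and all 21 Krt19 points lie below the band.

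The simple keratins of the Krt8 and Krt18 pair took another course, with their highest signals at 2 and 6 h and no called difference between late and 0 h arrays. In NBTII-FGFR1 cells Krt8 (probe set 1371530_at), the type II partner, had 8.87 and 8.39 at 0 h, 9.29 at 0.5 h, 9.26 and 9.96 at 2 h, 9.58 and 10.19 at 6 h, 8.29 and 8.05 at 24 h, and 8.48 and 8.06 at 48 h. In NBTII cells Krt8 had 8.79 at 0 h, 8.49 at 0.5 h, 9.37 and 9.55 at 2 h, 9.59 and 9.70 at 6 h, 8.38 and 7.91 at 24 h, and 8.87 and 8.23 at 48 h. Every early array was above every late array of its line. Late against early, Krt8 fell by 1.53 ± 0.19 (adjusted p = 1.0e-04) in NBTII-FGFR1 and fell by 1.21 ± 0.19 (adjusted p = 8.6e-04) in NBTII. Late against 0 h, the Krt8 difference was -0.41 ± 0.24 (adjusted p = 0.28) in NBTII-FGFR1 and -0.44 ± 0.31 (adjusted p = 0.68) in NBTII, and neither was called.

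In NBTII-FGFR1 cells Krt18 (probe set 1388155_at), the type I partner, had 4.77 and 4.27 at 0 h, 5.30 at 0.5 h, 5.20 and 6.51 at 2 h, 5.89 and 7.82 at 6 h, 4.95 and 4.85 at 24 h, and 5.57 and 5.21 at 48 h. In NBTII cells Krt18 had 5.01 at 0 h, 5.08 at 0.5 h, 6.00 and 7.56 at 2 h, 6.84 and 8.09 at 6 h, 5.51 and 5.44 at 24 h, and 5.64 and 5.29 at 48 h. Replicate 2 minus replicate 1 was 1.25 to 1.92 in the groups at 2 and 6 h and -0.35 to -0.06 in those at 24 and 48 h. Late against early, Krt18 fell by 1.65 ± 0.42 (adjusted p = 0.017) in NBTII, where the groups did not overlap, and the NBTII-FGFR1 difference of -1.21 ± 0.42 (adjusted p = 0.06) was not called. The NBTII call was lost without NBTII replicate 2 at 2 h (-1.26, adjusted p = 0.082), at 6 h (-1.34, 0.078), at 24 h (-1.63, 0.055) or at 48 h (-1.56, 0.066). The NBTII-FGFR1 difference was called without NBTII-FGFR1 replicate 1 at 2 h (-1.54, adjusted p = 0.025) or at 6 h (-1.69, 0.0091), without either NBTII 2 h array (-1.21, 0.04 each), and with the arrays labelled NBTII-FGFR1 0 h replicate 1 and 2 h replicate 1 both left out (-1.54, 0.031).

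Krt19 (probe set 1388433_at), a type I keratin of simple epithelium, had signals of 3.24 to 3.86, below the lower quartile of each of the 21 arrays. No signal above the dim end of the arrays was shown for it, and its differences are given without a reading. They ranged from -0.33 to 0.04 over the 6 within-line comparisons of early, late and 0 h arrays. The difference of -0.33 ± 0.11, late against 0 h in NBTII-FGFR1, had an adjusted p of 0.047. When arrays were left out in turn that call held in 5 of 18 fits, those without either array of NBTII or NBTII-FGFR1 at 2 h or without NBTII-FGFR1 48 h replicate 2, and the adjusted p reached 0.41 in the others.

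In NBTII-FGFR1 cells Krt13 (probe set 1388329_at), the keratin of non-cornified stratified epithelium, had 7.10 and 7.25 at 0 h, 6.44 at 0.5 h, 6.04 and 6.26 at 2 h, 5.56 and 6.34 at 6 h, 5.36 and 5.11 at 24 h, and 5.14 and 5.32 at 48 h. In NBTII cells Krt13 had 6.4 at 0 h, 7.0 at 0.5 h, 6.73 and 6.88 at 2 h, 6.78 and 6.25 at 6 h, 5.82 and 4.90 at 24 h, and 5.98 and 5.41 at 48 h. Its group means were lower at each later time up to 24 h in NBTII-FGFR1, while in NBTII no array through 6 h was below 6.25. Late against early, Krt13 fell by 0.82 ± 0.21 (adjusted p = 0.013) in NBTII-FGFR1 and fell by 1.13 ± 0.21 (adjusted p = 0.0022) in NBTII. The NBTII-FGFR1 call was lost without 6 h replicate 2 (-0.63, adjusted p = 0.065), 24 h replicate 2 (-0.76, 0.053) or 48 h replicate 1 (-0.78, 0.054).

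Counted together, 5 of the 7 keratins were called lower and 0 higher late against early in NBTII-FGFR1, where 7.48% of all probe sets were called lower and 9.69% higher. In NBTII 6 of 7 were called lower and 0 higher, where 5.82% of all probe sets were called lower and 6.09% higher. The median difference of the 7 was -1.37 in NBTII-FGFR1 and -1.24 in NBTII, against -0.01 and 0.03 over all probe sets. The basal class averaged -2.55 and the simple class -1.0 in NBTII-FGFR1, a gap of -1.55 that ranged from -2.14 to -1.07 as each keratin was left out. In NBTII the basal class averaged -1.69 and the simple class -0.94, a gap of -0.75 with a range of -1.11 to -0.26. Krt19, at the dim end, makes the simple mean smaller in size, and without it the gaps were -1.18 and -0.26.

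Some epithelial markers other than keratins fell late against early as well. The 10 measured of 11 epithelial markers, among them E-cadherin and claudins, were above the lower quartile on every array. Late against early, 1 was called higher and 4 lower in NBTII-FGFR1, and 0 higher and 4 lower in NBTII, with medians of -0.12 and -0.25. Of all probe sets, 9.69% were called higher and 7.48% lower in NBTII-FGFR1, and 6.09% higher and 5.82% lower in NBTII. Late against 0 h, 1 was called lower in NBTII-FGFR1 and 0 in NBTII, with medians of -0.14 and 0.11. The shares of all probe sets called lower there were 8.03% in NBTII-FGFR1 and 0.473% in NBTII. The summed linear signal of the 10, in which the brightest genes weigh most, was 5840 to 8500 on late and 11900 to 13300 on early NBTII-FGFR1 arrays, and 6000 to 6530 on late and 10400 to 12000 on early NBTII arrays. Their part in the keratin differences was not tested. Of the markers of other cell types, 7 of 16 leukocyte, 8 of 12 fibroblast and 3 of 8 endothelial genes were below the lower quartile on every array, among them Ptprc, Col1a2, Dcn, Pdgfra and Pecam1. Above it on every array were 6 leukocyte, 3 fibroblast and 3 endothelial genes. The summed fibroblast markers were 267 to 306 on late and 275 to 306 on early NBTII-FGFR1 arrays, and 291 to 308 on late and 283 to 293 on early NBTII arrays. The summed leukocyte markers were 489 to 576 on late and 509 to 649 on early NBTII-FGFR1 arrays, and 538 to 557 on late and 538 to 610 on early NBTII arrays. The summed endothelial markers were 275 to 362 on late and 252 to 538 on early NBTII-FGFR1 arrays, and 307 to 334 on late and 282 to 332 on early NBTII arrays. The 3′ minus 5′ signal of the actin control, a sign of RNA integrity, was 0.33 to 0.42 on late and 0.32 to 0.49 on early NBTII-FGFR1 arrays, and 0.34 to 0.50 on late and 0.20 to 0.49 on early NBTII arrays.

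**Figure D2:**
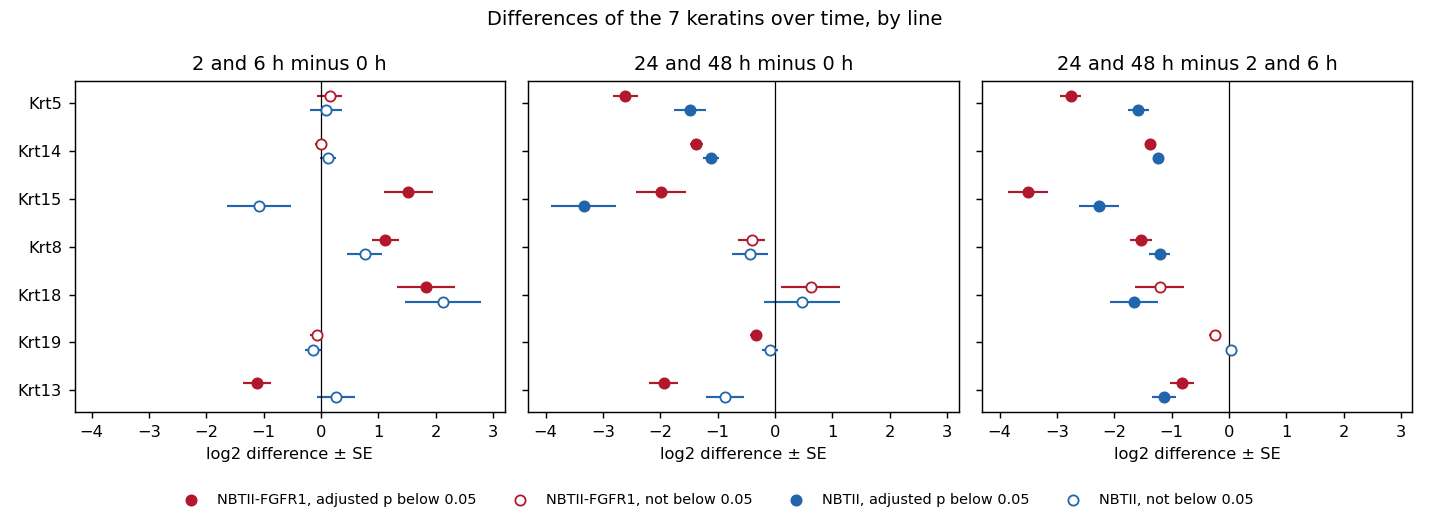
Log2 differences (x axis) with SE bars for the 7 keratins (rows) in 3 comparisons: 2 and 6 h minus 0 h, 24 and 48 h minus 0 h, and 24 and 48 h minus 2 and 6 h. NBTII-FGFR1 (red) is drawn above NBTII (blue), and filled points have an adjusted p below 0.05; in the right panel 5 red and 6 blue points are filled, all left of 0.

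Early against 0 h, keratins of both classes rose in NBTII-FGFR1. In the 2 and 6 h arrays against 0 h, Krt15, Krt8 and Krt18 rose and Krt13 fell, while Krt5 (0.15 ± 0.22, adjusted p = 0.74) and Krt14 (0.00 ± 0.11, adjusted p = 1) were not called. That is 3 of 7 called higher, where 7.58% of all probe sets were, and 1 of 7 called lower, where 8.84% were. Krt15 rose by 1.52 ± 0.43 (adjusted p = 0.026), to 7.93 to 9.37 on the early arrays against 6.93 and 7.15 at 0 h. Krt8 rose by 1.12 ± 0.24 (adjusted p = 0.0051) and Krt18 by 1.83 ± 0.51 (adjusted p = 0.023), 3.56-fold. Krt13 fell by 1.12 ± 0.25 (adjusted p = 0.0071), with 5.56 to 6.34 on the early arrays and 7.10 and 7.25 at 0 h. None of these 4 genes overlapped between early and 0 h arrays, which sets only 4 arrays against 2.

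These calls depended on single arrays. With the library labelled NBTII-FGFR1 0 h replicate 1 left out, Krt8 alone was called (1.36, adjusted p = 0.019), and the values were 1.64 (adjusted p = 0.12) for Krt15, 2.08 (0.092) for Krt18 and -1.20 (0.055) for Krt13. Without NBTII-FGFR1 0 h replicate 2 none of the 4 was called, at 1.41 (adjusted p = 0.16) for Krt15, 0.88 (0.091) for Krt8, 1.58 (0.18) for Krt18 and -1.05 (0.07) for Krt13. Krt15 and Krt18 lost their calls also without NBTII-FGFR1 2 h replicate 2 (1.28, adjusted p = 0.067, and 1.5, 0.061) and without 6 h replicate 2 (1.37, 0.079, and 1.35, 0.071). All 18 fits kept the signs of these 4 differences. The early step of Krt15 was 2.61 ± 0.71 larger in NBTII-FGFR1 than in NBTII, and that of Krt13 differed by -1.38 ± 0.41. Without that library the differences were 2.72 and -1.46. This comparison was added after the values had been seen. With all arrays, neither difference passed the threshold (adjusted p = 0.22 and 0.26), where 0.145% of all probe sets did. The count over all probe sets was 2606, and it was 932 with that library left out.

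In NBTII, early against 0 h, limma called 0 of the 7 keratins, where 4.72% of all probe sets were called, and 2 had an unadjusted p below 0.05. These were Krt18 (2.12 ± 0.66, adjusted p = 0.088) and Krt8 (0.76 ± 0.31, adjusted p = 0.2). The comparison sets 4 arrays against 1. The Krt18 difference was called without NBTII 2 h replicate 1 (2.51, adjusted p = 0.041), without either NBTII-FGFR1 6 h array (2.12, 0.04 each) and with array weights (2.12, 0.033). Krt15 was at -1.08 ± 0.56 (adjusted p = 0.36) and Krt13 at 0.26 ± 0.33 (adjusted p = 0.81).

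Late against 0 h, the 3 basal keratins, Krt19 and Krt13 were called lower in NBTII-FGFR1, where 8.03% of all probe sets were. Krt5 fell by 2.61 ± 0.22 (adjusted p = 5.3e-06), Krt14 fell by 1.37 ± 0.11 (adjusted p = 4.1e-06), Krt15 fell by 1.99 ± 0.43 (adjusted p = 0.0055) and Krt13 fell by 1.94 ± 0.25 (adjusted p = 1.5e-04). Leaving out the library labelled NBTII-FGFR1 0 h replicate 1, these were -2.72, -1.49, -1.88 and -2.02, and Krt15 (adjusted p = 0.071) and Krt19 (-0.45, adjusted p = 0.062) were no longer called. Krt18 was at 0.62 ± 0.51 (adjusted p = 0.48) with both 0 h arrays, and at 0.87 without that library. In NBTII, Krt5 fell by 1.48 ± 0.28 (adjusted p = 0.023), Krt14 fell by 1.12 ± 0.14 (adjusted p = 0.002) and Krt15 fell by 3.34 ± 0.56 (adjusted p = 0.0095), so 3 of 7 were called lower, where 0.473% of all probe sets were. The Krt5 call in NBTII was lost without NBTII 24 h replicate 2 (-1.35, adjusted p = 0.053) or 48 h replicate 2 (-1.38, 0.062). Krt13 in NBTII was at -0.87 ± 0.33 (adjusted p = 0.28). The early and late differences of a line share its 0 h arrays.

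**Figure D3:**
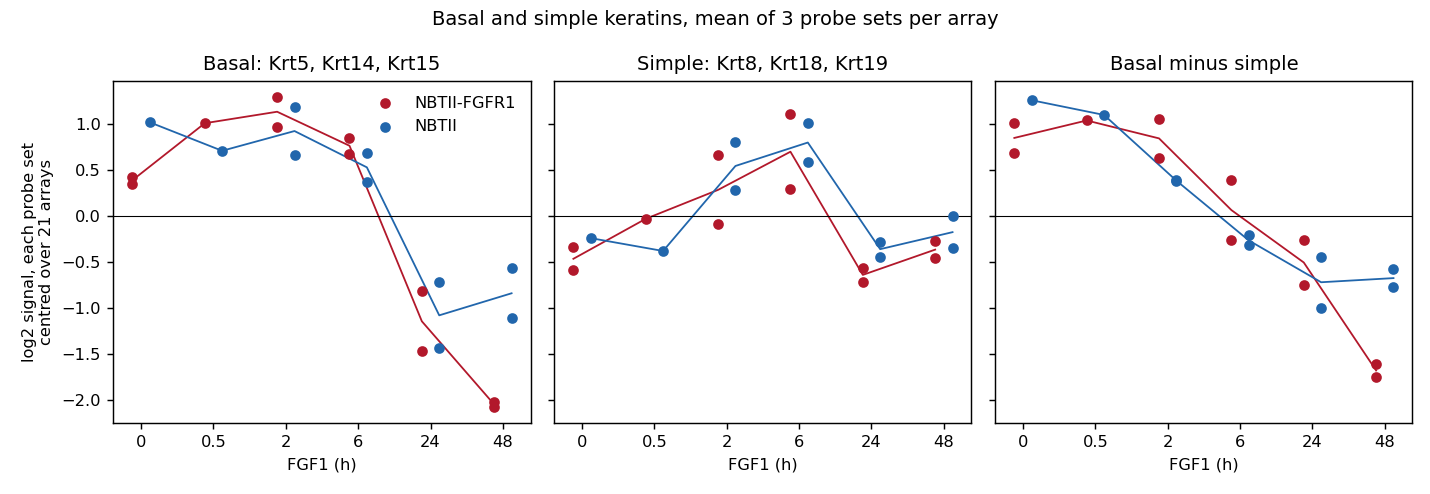
Mean centred log2 signal (y axis) of the basal keratins (Krt5, Krt14, Krt15), the simple keratins (Krt8, Krt18, Krt19) and their difference, by hours of FGF1 (x axis, evenly spaced steps), 1 point per array, NBTII-FGFR1 in red and NBTII in blue, each probe set centred over the 21 arrays. The difference is above 0 on all arrays up to 2 h and lowest, at -1.75 and -1.61, on the NBTII-FGFR1 arrays at 48 h.

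Between 24 and 48 h the basal pair went on falling in NBTII-FGFR1. This step was added after the values had been seen. At 48 h against 24 h in NBTII-FGFR1, Krt5 fell by 1.80 ± 0.25 (adjusted p = 6.7e-04) and Krt14 fell by 1.21 ± 0.13 (adjusted p = 1.3e-04), where 5.44% of all probe sets were called lower, and the other 5 keratins were not called. In NBTII the step was -0.03 ± 0.25 (adjusted p = 0.98) for Krt5 and -0.34 ± 0.13 (adjusted p = 0.34) for Krt14, and 0 of 7 keratins and 0.063% of all probe sets were called. The difference of the steps between the lines was -1.77 ± 0.36 (adjusted p = 0.14) for Krt5 and -0.87 ± 0.18 (adjusted p = 0.15) for Krt14. Neither passed the threshold, where 0.0126% of all probe sets did. With array weights both did (adjusted p = 0.027 and 0.028), and Krt5 did without NBTII-FGFR1 24 h replicate 2 (-2.25, adjusted p = 0.013).

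Averaged over time, the lines differed in Krt5 and Krt13. Over 2 to 48 h, NBTII-FGFR1 against NBTII with 8 arrays each, Krt5 (-0.47 ± 0.13, adjusted p = 0.021) and Krt13 (-0.45 ± 0.15, adjusted p = 0.048) were lower, so 2 of 7 were called lower, where 8.12% of all probe sets were. The group means of Krt5 were 12.90 in NBTII-FGFR1 against 12.77 in NBTII at 2 h, 12.60 against 12.48 at 6 h, 10.89 against 11.07 at 24 h and 9.09 against 11.03 at 48 h, so the averaged difference came mostly from 48 h. The ranges of both genes overlapped between the lines, at 8.97 to 12.93 in NBTII-FGFR1 against 10.80 to 12.91 in NBTII for Krt5, and at 5.11 to 6.34 against 4.90 to 6.88 for Krt13. The other 5 differences lay between -0.55 ± 0.29 (Krt18, adjusted p = 0.22) and 0.03 ± 0.14 (Krt8, adjusted p = 0.89). The Krt5 call was lost without NBTII 6 h replicate 2 (-0.44, adjusted p = 0.051), NBTII 24 h replicate 1 (-0.40, 0.057), NBTII 48 h replicate 1 (-0.42, 0.061) or NBTII-FGFR1 48 h replicate 1 (-0.44, 0.058). The Krt13 call held in 5 of the 18 fits without 1 array, those without replicate 2 of NBTII at 6, 24 or 48 h or of NBTII-FGFR1 at 2 or 6 h, and the adjusted p reached 0.12 in the others.

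The late against early step was not shown to differ between the lines for any keratin. The difference of the steps, NBTII-FGFR1 minus NBTII, was -1.18 ± 0.25 for Krt5 (adjusted p = 0.097) and -1.25 ± 0.50 for Krt15 (adjusted p = 0.39). Over all probe sets 0.164% were called. For Krt5 the difference passed the threshold without NBTII-FGFR1 2 h replicate 2 (-1.20, adjusted p = 0.048) and without NBTII-FGFR1 24 h replicate 1 (-1.42, adjusted p = 0.0088).

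Within groups, Krt8, Krt18 and Krt15 deviated together, as did Krt5 and Krt14. Across the 9 groups with 2 arrays, the gap between the arrays correlated at r = 0.92 for Krt8 and Krt18, 0.85 for Krt15 with each of them, and 0.94 for Krt5 and Krt14, and at 0.29 for Krt5 and Krt18. These are descriptions over 9 gaps of arrays that share all their probe sets. At 2 and 6 h replicate 2 was the higher array for Krt18, Krt8 and Krt15 in all 4 groups, by 1.25 to 1.92 for Krt18, 0.10 to 0.70 for Krt8 and 0.63 to 1.17 for Krt15. At 24 and 48 h it was the lower one in all 4 groups, with gaps of -0.35 to -0.06 for Krt18, -0.64 to -0.25 for Krt8 and -1.44 to -0.56 for Krt15. Over the 21 arrays, which share the time course, r was 0.96 for Krt5 and Krt14 and 0.75 for Krt8 and Krt18. Across the classes, Krt8 was at 0.82 with Krt15, 0.69 with Krt5 and 0.67 with Krt14. Krt18 was at 0.44, 0.29 and 0.28 with the same genes, so over all arrays the 2 classes were not separate.

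**Figure D4:**
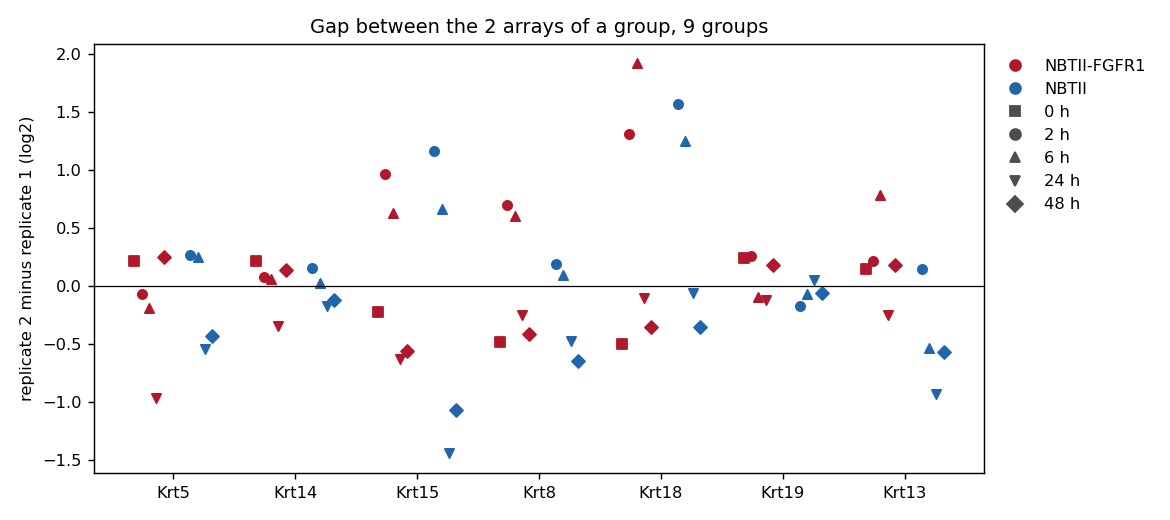
Gap between the 2 arrays of a group (replicate 2 minus replicate 1, log2, y axis) for the 7 keratins (x axis) in the 9 groups with 2 arrays; colour gives the line (NBTII-FGFR1 red, NBTII blue) and marker the hours of FGF1. Krt18 gaps reach 1.92 at 6 h, and Krt15, Krt8 and Krt18 are above 0 at 2 and 6 h and below 0 at 24 and 48 h.

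Some other intermediate filament genes were called too. Of 22 measured of 48, 1 was called higher and 3 lower late against early in NBTII-FGFR1, and 3 higher and 4 lower in NBTII, with medians of -0.09 and -0.03. Over all probe sets the shares were 9.69% higher and 7.48% lower in NBTII-FGFR1, and 6.09% higher and 5.82% lower in NBTII. Synm, which encodes synemin, a partner of vimentin filaments, rose by 1.04 ± 0.17 (adjusted p = 6.6e-04) in NBTII-FGFR1 and rose by 1.22 ± 0.17 (adjusted p = 2.9e-04) in NBTII. It has 2 probe sets, of which 1 was called. Krt1, a type II keratin of the upper epidermis, fell by 0.92 ± 0.18 (adjusted p = 0.0027) in NBTII-FGFR1 and fell by 1.21 ± 0.18 (adjusted p = 5.3e-04) in NBTII. Lmna, a lamin of the nuclear envelope, fell by 0.38 in NBTII-FGFR1 and fell by 0.45 in NBTII. Lmnb2, another lamin, fell by 0.32 in NBTII-FGFR1, and Krt12, a corneal keratin, fell by 0.79 in NBTII.

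Vim, which encodes the intermediate filament protein of mesenchymal cells, averaged 8.67 over the NBTII-FGFR1 and 7.11 over the NBTII arrays at 2 to 48 h, a difference of 1.56 ± 0.36 (adjusted p = 0.009). Late against early it rose by 2.00 ± 0.51 (adjusted p = 0.018) in NBTII, and the NBTII-FGFR1 difference of 1.10 ± 0.51 (adjusted p = 0.17) was not called. The early NBTII arrays of Vim lay far apart, at 5.24 and 7.35 at 2 h and at 4.97 and 6.89 at 6 h. The single NBTII arrays before them had 7.11 at 0 h and 5.13 at 0.5 h. The NBTII means were 8.47 at 24 h and 7.75 at 48 h, so the 48 h mean was close to the 0 h array. For the lines over 2 to 48 h, 1 of the 22 genes was called higher and 4 lower, where 8.34% of all probe sets were called higher and 8.12% lower. Those lower included Lmnb1 (-0.60 ± 0.08, adjusted p = 1.9e-04), Krt12 (-0.42, at the dim end as stated above) and the hair keratin gene Krt36 (-0.26).

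Several genes that anchor keratin filaments fell late against early. Of 11 measured of 22 desmosome and hemidesmosome genes, 1 was called higher and 4 lower late against early in NBTII-FGFR1, and 0 higher and 5 lower in NBTII, with medians of -0.25 and -0.38. Of all probe sets, 9.69% were called higher and 7.48% lower in NBTII-FGFR1, and 6.09% higher and 5.82% lower in NBTII. Late against 0 h, 1 of the 11 was called higher and 4 lower in NBTII-FGFR1 (median -0.12), and 1 higher and 0 lower in NBTII (median 0.05). Of the 15866 probe sets, 2687 in NBTII-FGFR1 and 181 in NBTII were called there in either direction, with 8.03% and 0.473% called lower. Early against 0 h, 2 were called higher in NBTII-FGFR1 (median 0.13) and 3 in NBTII (median 0.48), and 0 lower in either line. Among all probe sets, 7.58% were called higher and 8.84% lower in NBTII-FGFR1 early against 0 h, and 4.72% were called in either direction in NBTII. Jup, the plakoglobin of the desmosome plaque, fell by 1.08 ± 0.09 (adjusted p = 4.6e-06) in NBTII-FGFR1 and fell by 0.94 ± 0.09 (adjusted p = 2.0e-05) in NBTII. Dsp, which encodes desmoplakin, the protein that ties keratin filaments to the plaque, fell by 1.01 ± 0.10 (adjusted p = 2.0e-05) in NBTII-FGFR1 and fell by 0.80 ± 0.10 (adjusted p = 1.9e-04) in NBTII. Perp, a membrane protein of desmosomes, fell by 0.88 in NBTII-FGFR1 and fell by 0.56 in NBTII, and the desmosomal cadherin gene Dsc2 fell by 1.09 in NBTII. Cd151, a tetraspanin of hemidesmosomes, rose by 0.41 in NBTII-FGFR1.

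Of 15 measured of 25 transcription factors of epithelia, 0 were called higher and 5 lower late against early in NBTII-FGFR1, and 0 higher and 2 lower in NBTII, with medians of -0.11 and -0.12. The shares of all probe sets called in these comparisons were 9.69% higher and 7.48% lower in NBTII-FGFR1 and 6.09% higher and 5.82% lower in NBTII. Ehf, an ETS factor of epithelia, fell by 1.48 ± 0.19 (adjusted p = 1.1e-04) in NBTII-FGFR1 and fell by 1.16 ± 0.19 (adjusted p = 9.0e-04) in NBTII. In NBTII-FGFR1, Ehf averaged 4.57 at 0 h, 6.54 at 2 h, 5.19 at 6 h, 4.25 at 24 h and 4.53 at 48 h. The NBTII values were 4.83 at 0 h, 6.22 at 2 h, 4.94 at 6 h, 4.25 at 24 h and 4.59 at 48 h. Its fall thus came mostly from a peak at 2 h. Klf4, a factor of epithelial barriers, fell by 0.76 in NBTII-FGFR1 and fell by 0.61 in NBTII. Tp63, which encodes the p63 factor of basal epithelial cells, fell by 0.70 ± 0.15 (adjusted p = 0.0057) in NBTII-FGFR1, and Klf5 fell there by 0.67. Of 4 measured of 10 urothelial differentiation genes, Cldn4, a tight junction claudin, fell by 1.59 ± 0.17 (adjusted p = 2.7e-05) in NBTII-FGFR1 and fell by 1.96 ± 0.17 (adjusted p = 7.7e-06) in NBTII, and Psca, a cell surface antigen, rose by 0.76 in NBTII-FGFR1. Late against 0 h, 0 of these 4 genes were called in either line. Cldn4 averaged 8.04 at 0 h, 9.91 at 2 h and 8.32 at 48 h in NBTII-FGFR1. In NBTII it was at 7.95 at 0 h, 10.48 at 2 h and 8.04 at 48 h. Psca in NBTII-FGFR1 averaged 8.36 at 0 h, 7.27 at 2 h and 8.16 at 48 h. Both steps were thus returns towards the 0 h signal. Between the lines over 2 to 48 h, Elf3 was lower (-0.51), Cebpb higher (0.47), Itga6 higher (0.19) and Psca lower (-0.41) in NBTII-FGFR1. Itga6 has 2 probe sets, of which 1 was called.

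**Figure D5:**
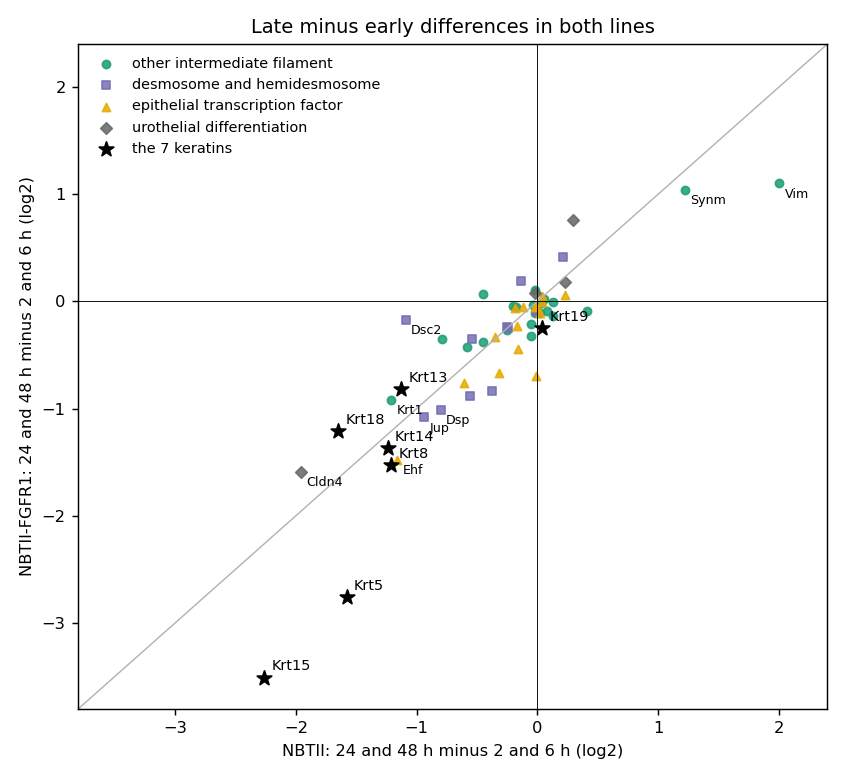
Late minus early log2 differences in NBTII-FGFR1 (y axis) and in NBTII (x axis) for the 7 keratins (stars) and 4 lists of related genes; the grey diagonal marks equal differences. Krt5 and Krt15 lie lowest, at -2.76 and -3.51 in NBTII-FGFR1, while Synm and Vim lie at the upper right.

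The genes whose signal over the 21 arrays was most like the mean of the basal keratins, by Pearson correlation among 12712 probe sets with 1 symbol, were Jup (0.95), Trim29 (0.95), Plbd2 (0.94), Cdc42se1 (0.94) and Perp (0.93). For the simple keratins they were Furin, Kdm5b, Il1r2, F11r and Aqp3, at 0.88 each. For Krt13 they were Calml5 (0.90), Krt1 (0.89), Hadh (0.85), Dmkn (0.84) and Rnf167 (0.83). With Spearman correlation, 0, 4 and 3 of the 5 genes were again among the top 5. All points share the time course, and the values are given as descriptions.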

How the data were processed

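Total RNA was hybridised to 21 Affymetrix arrays. The deposited table gives log2 signal intensities for 15923 probe sets; the authors used RMA, per the submitters' processing notes, which name no version. The 57 control probe sets were left out, and the other 15866 were tested with no filter on low values and no further normalization. Symbols came from GEO's platform annotation: 12783 probe sets have 1, 312 several and 2771 none or no entry. Probe sequences were not used here, so signal from related keratins could not be checked. Groups came from the sample titles; 2 titles name NBTII-FGFR1 at 0 h, although the series text excludes the controls from duplication.

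The tests were linear models with 12 group means (limma 3.58.1, R 4.3.3, 9 residual and 5.68 prior degrees of freedom), with Benjamini-Hochberg adjustment over 15866 probe sets and a threshold of 0.05; the spread of a lone array was borrowed from the other groups. The number of arrays limits the precision. Of several probe sets of a gene, the one of highest mean was read. The 7 keratins are named in full; up to 4 called members of each of 4 lists with the smallest p were named per late against early and line comparison, and the 5 genes most like each keratin profile. Vim outside the line comparison, and Krt10, Lmnb1 and Cebpb in the closing section, were named after their values were seen. Members and lists were chosen with earlier results of these data known. Deviations of same-numbered arrays correlated at -0.13 to 0.35 over 36 pairs of groups (median 0.02), above 0.1 in 15 of them and not in all; the labels give no meaning to the numbers, so a block by number was an alternative only. The 2 arrays of a group correlated at 0.988 to 0.997, and no columns were identical. Alternatives were 6 other settings, 18 fits without 1 array, and comparisons of 48 h with 24 h and of the early steps between lines, added after seeing the data. The fit was tested on simulated data. Tables were made with Python 3.11.15, pandas 2.3.3 and numpy 2.4.6, figures with matplotlib 3.10.9.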

Additional observations from a re-analysis of the deposited data

Results flagged for a closer look

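Early against 0 h, the Krt15 differences had opposite signs, at 1.52 ± 0.43 (adjusted p = 0.026) in NBTII-FGFR1 and -1.08 ± 0.56 (adjusted p = 0.36, against 1 array) in NBTII, with each early array above both 0 h arrays in NBTII-FGFR1 and below the 0 h array in NBTII. A test of the difference, added after the values were seen, gave 2.61 ± 0.71 (limma, adjusted p = 0.22), where 0.145% of all probe sets were called; the lines were thus not shown to differ, and the NBTII-FGFR1 call was lost without either 0 h array. For the difference between the lines adjusted p lay between 0.11 and 0.4 over its alternatives.

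The 0.5 h arrays enter no comparison. At 0.5 h Krt15 was 8.57 in NBTII-FGFR1, above 6.93 and 7.15 at 0 h, and Krt13 was 7.0 in NBTII, above 6.4 at 0 h; both gaps exceed 2 residual SDs. In the other line the same genes were below 0 h at that time, with Krt15 at 8.15 in NBTII, against 9.16 at 0 h, and Krt13 at 6.44 in NBTII-FGFR1, against 7.10 and 7.25 at 0 h. At 0.5 h 1 array was measured per line, and the spread at that time is unknown.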

How the results depend on the processing

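Of the keratin differences in the 8 planned comparisons, 1243 values under another setting kept their side of the threshold, 62 lost the call and 15 gained it. Some differences that were not called changed sign, such as Krt19 in NBTII-FGFR1 early against 0 h, from -0.08 to as high as 0.04. The basal minus simple gap of NBTII-FGFR1 early against 0 h, -0.40, turned to 0.04 without Krt18. Without the dimmer probe sets (mean under the median of all) the test drops Krt18, Krt19 and Krt13, and the keratins called fell to 2 from 4 in NBTII-FGFR1 early against 0 h, to 3 from 5 late against 0 h, and to 1 from 2 for the lines; of all probe sets, 16 in place of 26 were called for the line by time difference. With only the arrays compared, all calls were 1092 in place of 2606 (NBTII-FGFR1 early against 0 h), 302 in place of 749 (NBTII early against 0 h) and 425 in place of 181 (NBTII late against 0 h), and 1 keratin was called for the lines. There Krt18 was at 0.62 (adjusted p = 0.021) late against 0 h in NBTII-FGFR1, and at 1.83 (adjusted p = 0.09) early. Repeated quantile normalization called 1 keratin for the lines. Array weights called 1 keratin in NBTII early against 0 h, 1 for the lines, and 365 probe sets in NBTII late against 0 h. Leaving out the libraries labelled NBTII-FGFR1 0 h replicate 1 and 2 h replicate 1 called 1541 and 1498 probe sets in NBTII-FGFR1 early and late against 0 h, 282 in NBTII late against 0 h, 2 keratins in NBTII-FGFR1 early against 0 h and 1 for the lines. Apart from the keratins dropped with the dimmer probe sets, the causes of these changes were not tested.

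Without 1 array at a time, keratins called ranged from 0 to 4 (NBTII-FGFR1 early against 0 h), 3 to 5 (late against 0 h), 4 to 7 (late against early), 0 to 1 (NBTII early against 0 h), 2 to 3 (late against 0 h), 5 to 6 (late against early), 0 to 2 (lines) and 0 to 1 (line by time), and all probe sets called, in the same order, from 932 to 3054, 1106 to 3203, 1778 to 2874, 482 to 1065, 75 to 310, 1251 to 2377, 1795 to 3218 and 5 to 228.

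With the replicate number as a block, the keratins called were 4, 4, 6, 0, 3, 6, 2 and 0 in the same order, and all probe sets called were 2748, 2844, 2848, 790, 253, 2057, 2808 and 36; Krt19 lost its call late against 0 h (adjusted p = 0.052) and Krt18 gained one late against early (-1.21, adjusted p = 0.036) in NBTII-FGFR1, and no other keratin call changed. The deviations of same-numbered arrays correlated above 0.1 in 15 of 36 pairs of groups, so the numbers were not taken to pair the arrays. The block fits the same offset in all groups. It therefore cannot take up gaps that change sign between early and late groups, as those of Krt15, Krt8 and Krt18 did. Their gaps had the same sign in both lines at each time from 2 to 48 h. No fit modelled a shift shared by the lines at a given time, so such a pairing was not tested. Each keratin has 1 probe set, so averaging a gene's probe sets changes nothing here. Krt19, and Krt18 on 1 array, lay below the lower quartile, where signal over background limits what can be read. In the added comparison of 48 h with 24 h, the keratin calls within each line did not change under any setting.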

Other observations

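Krt10, the type I partner of Krt1 in the upper epidermis, was singled out after its values were seen. In NBTII it fell by 1.08 ± 0.24 (limma, adjusted p = 0.045) late against 0 h, a comparison with 1 array, and fell by 0.58 ± 0.15 (adjusted p = 0.022) late against early, while late against early in NBTII-FGFR1 it was at -0.43 ± 0.15 (adjusted p = 0.071) and not called. Among the other genes on the lists, Lmnb1, a lamin of the nuclear envelope, fell by 1.09 ± 0.15 (adjusted p = 6.3e-04) at 48 h against 24 h in NBTII-FGFR1. Cebpb, a transcription factor of epithelial differentiation, rose there by 1.40 ± 0.26 (adjusted p = 0.0039).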
